A study of Mus musculus with 3 samples.

Results

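The kidney library of old mice given D+Q was set against the kidney library of old mice given vehicle, gene by gene, over whole libraries. Both sides were chosen by their titles, and every barcode with at most 50% of its counts from mitochondrially encoded genes was used. This kept 7888 barcodes of the D+Q library and 5945 of the vehicle library, 13833 of the 22063 barcodes that met the same limit in the 3 libraries of the series. All mice were male. The old mice of both sides were 20 months old, and the remaining library came from young control mice of 3 to 4 months, whose values stand beside the old ones as a reference. D+Q is the usual short form for dasatinib plus quercetin. The dose, the schedule, the time between the last dose and tissue collection, the hour of collection and the number of animals in each library were not stated.

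Dasatinib blocks tyrosine kinases of the SRC and ABL families, and quercetin is a plant flavonoid that acts on several kinases and on antioxidant defence. The pair is used as a senolytic, a treatment meant to remove senescent cells, which have left the cell cycle for good and secrete inflammatory and matrix-active factors. The kidney is a tissue in which most cells are proximal tubule cells. They reabsorb glucose, amino acids and phosphate, burn fatty acids in mitochondria and peroxisomes, and respond to glucocorticoids and to the circadian clock.

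Counts summed over a library were scaled to CPM (each library's counts set to a common total), and the log2 ratio of D+Q over vehicle was taken. Parentheses hold 95% intervals for counting error alone. With 1 library a side there was no replicate check and no test, so "higher" and "lower" describe these libraries. In a sum over all barcodes, fewer cells of a type and less RNA per cell cannot be told apart. The D+Q library held 20737994 counts with a median of 2305 per barcode, the vehicle library 13794821 with 1887, and the young library 23454900 with 2406.5. The labelled tissue was borne out by nephron markers: those of the proximal tubule summed to 10883 CPM in D+Q and 11855 CPM in vehicle, and those of the thick ascending limb to 3001 and 2589 CPM, with 0 members of either list at 0 counts. Mitochondrially encoded genes took 8.95% of counts in D+Q, 6.79% in vehicle and 8.97% in young. Haemoglobin genes stood at 282, 553 and 320 CPM in that order. The old libraries shared 28 barcode sequences.

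Of 11932 genes with at least 30 counts over both old libraries and a mean of 5 CPM, 165 were at least 1.5-fold higher in D+Q, which is 1.38% of the genes, and 216 were at least 1.5-fold lower, which is 1.81%. At a ratio of 2, these numbers were 31 and 36. The median log2 ratio of all genes was −0.06, and the quartiles were −0.19 and 0.09. The split between directions moved with the scaling. Higher genes were 43.3% of those past 1.5-fold with totals as the scale, but 60.7% with TMM scaling, which gave 227 higher and 147 lower genes. Under other settings the background shares differed. Higher and lower genes were 1.90% and 1.23% with TMM scaling, 1.58% and 0.981% with the cluster makeup held equal (each cluster weighted by its share of both libraries' counts), and 1.84% and 2.08% in proximal tubule-like clusters only. They were 1.09% and 1.69% without the small clusters 18 (urothelial-like), 21 (adipocyte-like) and 22 (unnamed), 1.94% and 1.83% by the mean over barcodes, and 1.42% and 1.60% with a mitochondrial limit of 25%. The plot of all genes shows the narrow band in which most genes lay and the leading genes outside it. These are the 14 with the largest ratio in each direction that reached 30 CPM and 100 counts in the higher library with an interval beyond 1.5-fold.

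**Figure D1:**
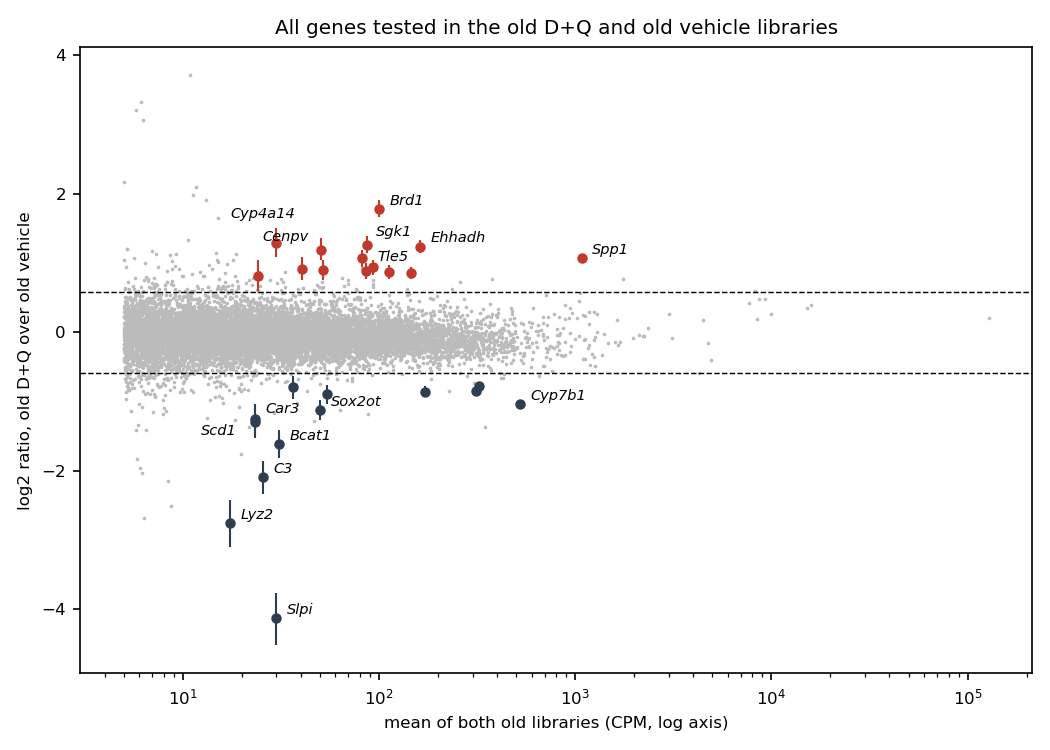
Each grey point is 1 of the 11932 genes, with its mean CPM over both old libraries on a log axis and its log2 ratio of old D+Q over old vehicle. Coloured points are 27 leading genes with 95% counting intervals, red for higher and dark for lower, those past 2-fold are named, and dashed lines mark 1.5-fold. Most genes lie between the dashed lines, Slpi is lowest of the named genes at −4.13 and Brd1 is highest of them at 1.78.

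The leading higher genes included regulators of transcription and chromatin. Brd1, a bromodomain protein that binds acetylated histones as the scaffold of a histone acetyltransferase complex, was at 155 CPM (149 to 160) in D+Q, 44.9 CPM (41.5 to 48.6) in vehicle and 42.0 CPM (39.4 to 44.7) in young. The D+Q library alone stood high, and the vehicle and young levels lay close together. The log2 ratio was 1.78 (1.66 to 1.91), a ratio of 3.44. Brd1 counts were found in 2409 D+Q and 565 vehicle barcodes and were spread widely, since the 10 barcodes with most counts held 2.49% and 4.03% of them. With each barcode thinned to 1000 counts by 1 random draw, which left out 0 barcodes, 13.6% of D+Q (12.8 to 14.3) and 4.21% of vehicle barcodes (3.71 to 4.75) had a Brd1 count. The unthinned shares were 30.5% and 9.50%.

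Tle5, a short member of the Groucho family of co-repressors, was at 112 CPM in D+Q, 53.3 CPM in vehicle and 59.9 CPM in young, with a log2 ratio of 1.07 (0.95 to 1.19). Its relative Tle3, a full-length Groucho co-repressor, went the other way, at 26.8, 46.5 and 19.3 CPM and −0.79 (−0.96 to −0.63). Cenpv, a centromere protein, was at 70.2 CPM in D+Q against 30.7 CPM in vehicle, a log2 ratio of 1.19 (1.04 to 1.35), with 42.3 CPM in young. For Tle5 and Cenpv the young level lay nearer to vehicle than to D+Q. Paxbp1, a protein that links PAX transcription factors to histone methylation, had 112 and 60.5 CPM and a log2 ratio of 0.88 (0.77 to 1.00). Tbx2, a T-box repressor of kidney and heart development, had 30.9 and 17.5 CPM and 0.82 (0.60 to 1.04). Tmem252, which encodes a little-studied membrane protein, was at 146 CPM in D+Q and 79.5 CPM in vehicle, a log2 ratio of 0.87 (0.77 to 0.97), and at 147 CPM in young.

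**Figure D2:**
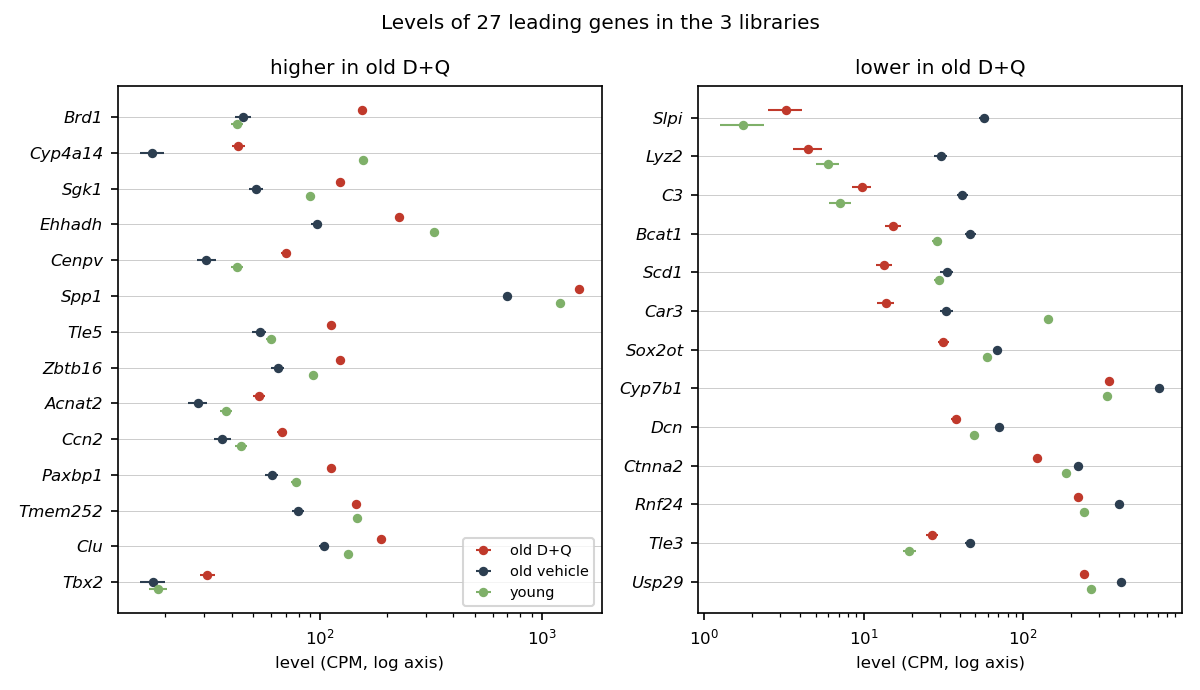
Levels in CPM on a log axis of the 14 leading higher genes (left) and 13 leading lower genes (right) in the old D+Q (red), old vehicle (dark) and young (green) libraries, 1 point per library with its 95% counting interval. For Brd1 the young point lies by the vehicle point (42.0 and 44.9 CPM), for Cyp7b1 by the D+Q point (335 and 345 CPM), and for Cyp4a14 and Ehhadh the young level is above both old ones.

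Brd1 kept its direction in every cell class that could be compared. Barcodes of both old libraries were clustered together and clusters were named from marker genes as "like" classes. Those with at least 50 barcodes on each side were proximal tubule-like (5329 in D+Q and 4009 in vehicle), endothelial-like (452 and 274), distal convoluted tubule-like (274 and 174), thick ascending limb-like (266 and 149) and like principal cells and connecting tubule (163 and 79). Brd1 had a log2 ratio of 1.93 (1.76 to 2.10) in proximal tubule-like and 1.90 (1.44 to 2.43) in endothelial-like clusters. The distal convoluted tubule-like class gave 2.35 (1.47 to 3.52). It was 1.46 (0.69 to 2.40) in the thick ascending limb-like class and 1.52 (0.56 to 2.79) in the class of connecting tubule and principal cells. All 5 intervals lay above 0 and overlapped one another.

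Tle5 was at 1.18 (1.02 to 1.35) in the proximal tubule-like class and at 2.70 (1.55 to 4.50) in that of connecting tubule and principal cells, and its intervals lay above 0 in all 5 classes. Median depths were 2644 and 2443 counts in the endothelial-like and 2314 and 1809 counts in the proximal tubule-like class. RNA from outside the cell was not measured, and its part in the values within classes was not tested. The difference of the ratios between classes was not tested either.

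The largest proximal tubule-like cluster was not the same on both sides. In D+Q it was cluster 2, whose leading genes held Ehhadh and Cyp4a14, with 1160 D+Q and 371 vehicle barcodes, and in vehicle it was cluster 7, whose leading genes held Cntnap5a and Slco1a1, with 1026 and 1337. These sizes are no result of their own, since genes that define the clusters differ between the libraries.

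**Figure D3:**
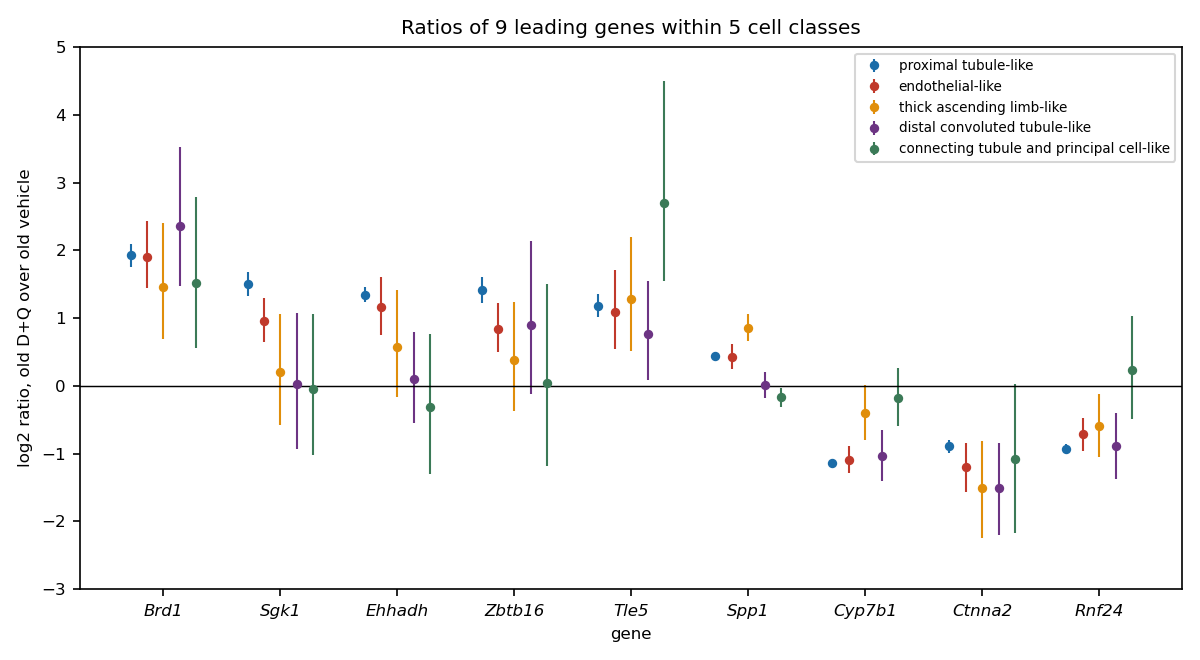
Log2 ratios of old D+Q over old vehicle of 9 leading genes within 5 cell classes, 1 colour per class, with 95% counting intervals and a line at 0. The 5 points of Brd1 lie between 1.46 and 2.35 and those of Ctnna2 between −1.51 and −0.90, while Sgk1 is at 1.5 in the proximal tubule-like class and near 0 in that of connecting tubule and principal cells.

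A few enzymes of fatty acid oxidation were higher in D+Q. Cyp4a14, a fatty acid omega-hydroxylase and a classical target of the lipid sensor PPARA, was at 42.7 CPM (39.9 to 45.6) in D+Q, 17.5 CPM (15.3 to 19.8) in vehicle and 155 CPM (150 to 161) in young. Ehhadh, the bifunctional enzyme of peroxisomal fatty acid oxidation, was at 227 CPM (221 to 234), 96.3 CPM (91.2 to 102) and 325 CPM (318 to 333). For both, vehicle was lowest, D+Q intermediate and young highest, with no overlap of the intervals. The log2 ratios were 1.29 (1.08 to 1.5) and 1.24 (1.15 to 1.33), and within proximal tubule-like clusters 1.43 (1.18 to 1.70) and 1.34 (1.24 to 1.45). Endothelial-like clusters gave −0.02 (−0.90 to 0.95) for Cyp4a14 on 30 and 17 counts and 1.16 (0.75 to 1.61) for Ehhadh.

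Thinned proximal tubule-like barcodes with a Cyp4a14 count were 3.94% in D+Q and 1.80% in vehicle, against 1.11% and 0.365% of endothelial-like barcodes, a class that should lack it. For Ehhadh these shares were 20.0% and 10.0%, against 10.2% and 7.30%. Unthinned, 7.34% and 2.67% of proximal tubule-like barcodes had a Cyp4a14 count and 36.1% and 17.6% an Ehhadh count. Cluster 2 held 44.7% of the D+Q and 18.3% of the vehicle counts of Cyp4a14, and 37.6% and 11.4% of those of Ehhadh. Without that cluster the log2 ratios were 0.87 and 0.88.

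Acnat2, which joins fatty acids to amino acids, was at 53 CPM in D+Q, 28.1 CPM in vehicle and 37.6 CPM in young, a log2 ratio of 0.92 (0.75 to 1.09). Pdk4, the kinase that turns off pyruvate dehydrogenase when fat is burned, was at 12.7, 7.18 and 40.6 CPM, with 0.82 (0.48 to 1.17). Most of the wider pathway lay near 0. Of 43 measured genes of fatty acid oxidation and PPARA targets, 3 were at least 1.5-fold higher (Cyp4a14, Ehhadh and Pdk4), beside 1.38% of all genes. In the list 1 was lower (Acsm3, a medium-chain acyl-CoA synthetase, at −0.68) and 39 lay between, with a median of −0.02 beside −0.06 for all genes. Its sign turned to positive with TMM scaling. Cyp4a14 has close relatives in the Cyp4a cluster and Acnat2 in Acnat1, and how reads were divided among relatives was not stated.

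Fat and sterol synthesis lay on the lower side. Scd1, the desaturase that makes monounsaturated fatty acids, was at 13.5 CPM (11.9 to 15.1) in D+Q, 33.2 CPM (30.2 to 36.4) in vehicle and 29.7 CPM (27.5 to 32.0) in young. The D+Q library alone was low, with a log2 ratio of −1.30 (−1.52 to −1.09), and the ratio within proximal tubule-like clusters was −1.46 (−1.73 to −1.19). The median of the 23 measured genes of sterol and fatty acid synthesis was −0.28, beside −0.06 for all genes. In the list, 21 had a ratio below 0, 2 were at least 1.5-fold lower (1.81% of all genes were) and 0 higher. The other lower gene was Idi1, an isomerase of the isoprenoid pathway, at 12.1, 18.7 and 20.9 CPM and −0.63 (−0.88 to −0.37), but within 1.5-fold at −0.56 with TMM scaling. Dhcr7, the last enzyme of cholesterol synthesis, was at −0.47, within 1.5-fold. The list median stayed between −0.29 and −0.21 under every alternative run.

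Genes of the proximal tubule's last segment and of male mice included Cyp7b1, an oxysterol hydroxylase known for higher levels in male than in female mouse kidney. It was at 345 CPM (337 to 353) in D+Q, 709 CPM (695 to 723) in vehicle and 335 CPM (327 to 342) in young. The vehicle library stood apart and D+Q and young lay close together, and the log2 ratio was −1.04 (−1.08 to −1.0). Bcat1, which starts the breakdown of branched-chain amino acids in the cytosol, was at 15.2, 46.7 and 28.9 CPM, a log2 ratio of −1.61 (−1.81 to −1.42).

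Rnf24, a RING-finger membrane protein, was at 222 CPM in D+Q, 401 CPM in vehicle and 241 CPM in young. Sox2ot, a long noncoding RNA that spans the Sox2 locus, was at 31.5, 68.9 and 59.0 CPM. Their log2 ratios were −0.85 (−0.91 to −0.80) and −1.13 (−1.27 to −0.98). A single cluster of proximal tubule-like barcodes, cluster 14, held most of the vehicle counts of these genes: 65.7% of Cyp7b1, 68.8% of Bcat1, 54.3% of Rnf24 and 53.8% of Sox2ot. Without it the log2 ratios were −1.0, −1.18, −0.80 and −1.01.

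Most other genes of the segment S3 list and of the male-biased list lay near 0. Of 17 measured S3 markers, 2 were at least 1.5-fold lower (Cyp7b1 and Acsm3), beside 1.81% of all genes, and 0 higher, with a median of −0.14. Of 13 male-biased genes the same 2 were lower and 0 higher, with a median of 0.08. That median was −0.04 with a mitochondrial limit of 25%, −0.01 with the higher floor and −0.06 with the cluster makeup held equal, where Acsm3 at −0.56 was within 1.5-fold. Kap and Slc7a13, abundant male S3 transcripts, stood at 0.26 and 0.27. Ctnna2, an alpha-catenin best known from neurons, was at 122 CPM in D+Q, 222 CPM in vehicle and 186 CPM in young, and −0.86 (−0.94 to −0.78). Of 21 neuronal adhesion genes measured, 2 were lower (Ctnna2 and the contactin-associated Cntnap5a, at −0.74, and −0.58 with the makeup held equal) and 0 higher, with a median of −0.17. Usp29, an imprinted ubiquitin peptidase, was at 240, 410 and 268 CPM and −0.77 (−0.83 to −0.72). Its counts lay almost wholly in 1 unnamed cluster, cluster 11, which held 95.8% of them in D+Q and 95.4% in vehicle.

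Several of these genes overlap others on the GRCm38 annotation: Ehhadh, Acnat2, Bcat1, Ccn2, Paxbp1, Ctnna2, Rnf24 and Usp29 have a gene on the opposite strand, and Sox2ot overlaps Sox2 and several predicted genes. Whether reads were counted by strand was not stated. Brd1, Sgk1 and Cyp4a14 overlapped no other annotated gene.

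Glucocorticoid-responsive genes lay mostly on the higher side, with 10 of 14 above 0. Sgk1, the serum and glucocorticoid-regulated kinase that promotes tubular sodium uptake, was at 123 CPM (119 to 128) in D+Q, 51.3 CPM (47.6 to 55.2) in vehicle and 90.4 CPM (86.6 to 94.4) in young. Zbtb16, a zinc-finger repressor induced by glucocorticoids, was at 123 CPM (118 to 128), 64.3 CPM (60.1 to 68.7) and 93.3 CPM (89.5 to 97.3). For both genes the 3 intervals were apart, with vehicle lowest and D+Q highest. The log2 ratios were 1.26 (1.14 to 1.39) and 0.93 (0.82 to 1.05).

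With Pdk4, 3 of the 14 measured genes of this list were at least 1.5-fold higher (1.38% of all genes were) and 0 lower. The list median of 0.45 stood beside −0.06 for all genes. With TMM scaling 6 of 14 passed 1.5-fold, and under every alternative run the median stayed between 0.29 and 0.52. Just inside the 1.5-fold limit were Errfi1, a brake on the EGF receptor, at 0.57 (0.54 to 0.60), Cebpd, a stress-responsive transcription factor, at 0.56 (0.26 to 0.88), and Tsc22d3, the anti-inflammatory factor GILZ, at 0.52 (0.40 to 0.65). The metallothioneins Mt1 and Mt2, which bind zinc and copper, were at 0.42 and 0.48. Not all classical members followed. Fkbp5, the chaperone that damps the glucocorticoid receptor, was at 236 CPM in D+Q and 245 CPM in vehicle, a log2 ratio of −0.05 (−0.12 to 0.01), and Klf9, Klf15 and the receptor gene Nr3c1 lay between −0.06 and −0.02.

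The ratio of Sgk1 varied over classes, which was not tested. In proximal tubule-like clusters its log2 ratio was 1.5 (1.32 to 1.68) and in endothelial-like clusters 0.96 (0.65 to 1.29). In the clusters like principal cells and connecting tubule, where its product acts on the sodium channel ENaC, the ratio was −0.05 (−1.02 to 1.06) on 27 and 13 counts, too few to show a 2-fold difference. Zbtb16 was at 1.41 (1.22 to 1.61) and 0.84 (0.49 to 1.21) in proximal tubule-like and endothelial-like clusters. Thinned barcodes with an Sgk1 count were 8.97% in D+Q and 3.52% in vehicle among proximal tubule-like and 22.1% and 11.7% among endothelial-like barcodes, and unthinned 18.7% and 6.31%, and 43.4% and 27.4%. In the thick ascending limb-like class the thinned shares were 4.14% and 4.03%, and in the distal convoluted tubule-like class 4.01% and 4.02%. Unthinned they were 13.2% and 9.40%, and 8.39% and 6.90%. These rest on few Sgk1 counts, 44 and 20 in the first class and 25 and 15 in the second.

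Clock genes lay on both sides. In the clock, BMAL1 (gene Arntl) pairs with CLOCK or NPAS2 to switch on genes through E-boxes, among them the repressors of the PER and CRY families and REV-ERB alpha (gene Nr1d1). REV-ERB alpha in turn holds down Arntl, Npas2 and Cry1 through elements that contain GGTCA, which the activating ROR proteins also bind. The promoter windows below are from RefSeq on GRCm38.p6 at the first start listed for each gene. They are shown because they carry GGTCA or CACGTG in genes that stood on either side. The windows differ in distance from the start and in length (100 or 130 bases), so their numbers of matches cannot be compared between genes. Whether a GGTCA match is part of a full element was not tested. Capitals mark GGTCA, the E-box CACGTG and, in Cry1, both overlapping.
Arntl, chr7:113207225-113207324, plus strand: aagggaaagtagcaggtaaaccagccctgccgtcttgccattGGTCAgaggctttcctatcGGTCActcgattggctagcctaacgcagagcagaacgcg
Npas2, chr1:39194032-39194131, plus strand: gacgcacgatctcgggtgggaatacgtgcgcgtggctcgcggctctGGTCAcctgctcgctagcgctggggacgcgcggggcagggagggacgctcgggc
Cry1, chr10:85185075-85185174, minus strand: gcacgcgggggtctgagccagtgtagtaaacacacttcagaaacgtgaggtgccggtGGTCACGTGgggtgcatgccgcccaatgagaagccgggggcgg
Ciart, chr3:95882249-95882378, minus strand: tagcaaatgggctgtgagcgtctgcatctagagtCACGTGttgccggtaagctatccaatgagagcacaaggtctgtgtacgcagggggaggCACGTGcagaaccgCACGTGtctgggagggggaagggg

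Searched on both strands over the 250 bases before the start, GGTCA was found in 35.2% of 32851 RefSeq promoters and CACGTG in 6.02%. Of the 13 clock genes matched by symbol, 8 had GGTCA and 4 had CACGTG at any of their listed starts. The shares over promoters count each start by itself, so the figures are not like for like. The matches are a description of these letters and no measure of binding.

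Npas2, whose window holds 1 GGTCA, was at 15.2 CPM (13.6 to 17.0) in D+Q, 6.02 CPM (4.79 to 7.46) in vehicle and 14.5 CPM (13.0 to 16.1) in young. Arntl, with 2 GGTCA, was at 19.6, 12.4 and 18.8 CPM, and Cry1 at 14.5, 9.06 and 8.70 CPM. D+Q was above vehicle for all 3 without overlap of the intervals, and young lay with D+Q for Npas2 and Arntl but with vehicle for Cry1. The log2 ratios were 1.33 (0.98 to 1.70), 0.66 (0.40 to 0.93) and 0.67 (0.37 to 0.99). In proximal tubule-like clusters they were 1.53 (1.10 to 2.01) for Npas2, 1.41 (1.00 to 1.85) for Arntl and 0.69 (0.29 to 1.13) for Cry1. Endothelial-like clusters had few counts, with Npas2 at 22 and 2 and Arntl at 20 and 15.

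On the lower side Nr1d1 was at 10.8 CPM in D+Q, 20.9 CPM in vehicle and 10.3 CPM in young, a log2 ratio of −0.95 (−1.21 to −0.69). Ciart, a repressor of CLOCK and BMAL1 whose window holds 3 E-boxes, was at 29.1, 42.3 and 23.8 CPM and −0.54 (−0.71 to −0.37), within 1.5-fold. Dbp, an E-box-driven output factor, was at −0.35 (−0.52 to −0.19). The PER genes were not low with them: Per1 stood at −0.05 (−0.28 to 0.18) and Per2 at 0.18 (0.08 to 0.28). Per3 had 0 counts in the 3 libraries. Of 15 clock genes measured, 3 were at least 1.5-fold higher and 1 lower (1.38% and 1.81% of all genes were), with a median of −0.01. Of 6 output factors 0 passed in either direction. A clock gene's level depends on the hour, and hour and treatment cannot be told apart with 1 library a side.

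**Figure D4:**
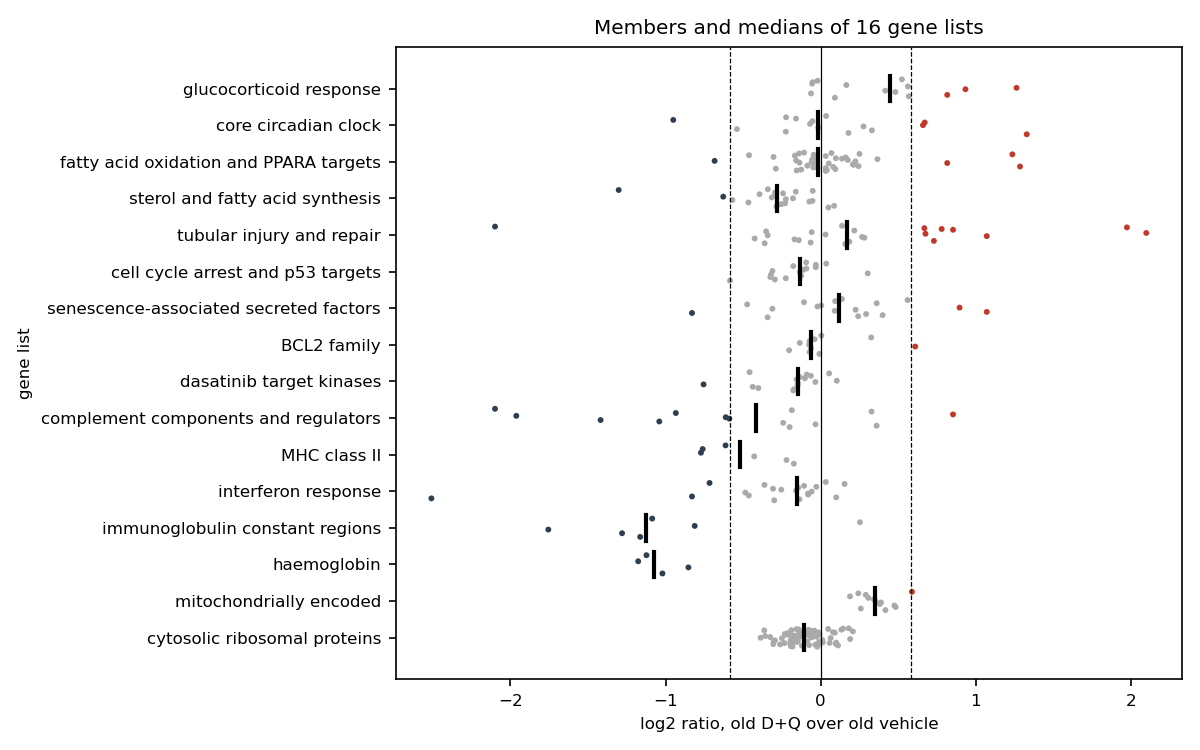
Each point is a measured member of 1 of 16 gene lists at its log2 ratio of old D+Q over old vehicle, red or dark where it passes 1.5-fold (dashed lines), and the black bar is the list's median. The glucocorticoid median lies at 0.45, those of MHC class II, immunoglobulin and haemoglobin genes at −0.52, −1.12 and −1.07, and arrest and p53 genes lie inside the dashed lines.

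Cell cycle arrest genes, summed over whole libraries, stayed within 1.5-fold. Cdkn1a (p21, an inhibitor of cyclin-dependent kinases) had 151 counts in D+Q and 107 in vehicle, at 7.28 CPM, 7.76 CPM and, in young, 8.78 CPM. The log2 ratio was −0.09 (−0.46 to 0.28), so a ratio past 1.5-fold in either direction lay outside its interval. Thinned barcodes with a count were 0.723% in D+Q (0.548 to 0.935) and 0.639% in vehicle (0.453 to 0.876), and 1.66% and 1.35% unthinned. Among proximal tubule-like barcodes the thinned shares were 0.507% (0.334 to 0.736) and 0.274% (0.137 to 0.490), with overlapping intervals, and the unthinned ones 1.05% and 0.624%, while the log2 ratio of Cdkn1a there was −0.00 on 59 and 36 counts. Cdkn2a, which encodes p16, had 2 counts in D+Q and 1 in vehicle, so no difference was detectable at this depth.

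Of 16 measured genes of cell cycle arrest and p53 targets, 0 were at least 1.5-fold higher and 0 lower, near the shares of all genes (1.38% and 1.81%). Under 4 alternatives 1 was lower: doublets left out, no mitochondrial limit, clusters 18, 21 and 22 left out, and proximal tubule-like clusters only. With no floor on counts 2 of 24 were higher. Their median was −0.13, beside −0.06 for all genes, and 14 lay below 0. The lowest was Btg2, an antiproliferative p53 target, at −0.58 (−0.79 to −0.38), which is next to the 1.5-fold limit, and the highest Cdkn1b, which encodes p27, at 0.30 (0.12 to 0.49). Gdf15, a stress cytokine, was at 12.9 CPM in D+Q and 16 CPM in vehicle, with 8.57 CPM in young.

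Secreted factors of the senescent phenotype held 2 members higher and 1 lower of 18 measured, with a median of 0.12. The higher ones, Spp1 and Ccn2, are treated below with the clusters that held them. Cxcl10, an interferon-induced chemokine, was the lower one at 5.01 and 8.92 CPM and −0.83 (−1.22 to −0.44). The genes that senolytics are held to act on were mostly within 1.5-fold, as were most genes (1.38% of all genes were higher and 1.81% lower). Of 11 BCL2 family genes 1 was higher, Mcl1, an antiapoptotic member, at 29.0 CPM in D+Q and 19.0 CPM in vehicle, a log2 ratio of 0.61 (0.40 to 0.83), or 0.58 without clusters 18, 21 and 22. Bcl2 and Bcl2l1, which encodes BCL-xL, were at −0.07 and −0.06. Of 16 dasatinib target kinases 0 were higher and 1 lower, the T cell kinase Lck at −0.75, with a median of −0.15. In this list 14 lay below 0. The median of the 9 measured in proximal tubule-like clusters only was −0.29, beside −0.05 for all genes there. Lck was within 1.5-fold by the mean over barcodes (−0.49) and with the makeup held equal (−0.30), while Src and Abl1 stood at −0.44 and −0.40. Of 18 PI3K, AKT and ephrin genes 1 was lower, Mtor, the growth kinase, at 207 CPM in D+Q, 311 CPM in vehicle and 192 CPM in young, a log2 ratio of −0.59 (−0.65 to −0.53). This lay on the 1.5-fold limit, and 0 of 18 were lower under 6 alternatives, among them TMM scaling (−0.52) and the makeup held equal (−0.49).

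Of 24 injury and repair genes measured, 8 were at least 1.5-fold higher (1.38% of all genes were), keratins among them. In this list 1 was lower (1.81% of all genes were) and 15 lay between, with a median of 0.17. Urothelial markers were higher beside the injury genes. Spp1, which encodes the matrix protein osteopontin, was at 1467 CPM (1450 to 1483) in D+Q, 698 CPM (684 to 712) in vehicle and 1206 CPM (1192 to 1220) in young, a log2 ratio of 1.07 (1.04 to 1.10). Of its counts, 47.4% in D+Q and 17.7% in vehicle lay in cluster 18. This urothelial-like cluster held 79 D+Q and 15 vehicle barcodes, 94 in all. Without it the log2 ratio of Spp1 was 0.44. Within proximal tubule-like clusters the ratio was also 0.44 (0.38 to 0.50), and in thick ascending limb-like clusters 0.85 (0.66 to 1.06).

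Krt19 and Krt18, keratins of simple and injured epithelium, were at 19.1 and 18.1 CPM in D+Q, 4.42 and 4.57 CPM in vehicle and 46.0 and 39.5 CPM in young. Cluster 18 held 72.5% of the D+Q and 41.0% of the vehicle counts of Krt19, and without it the log2 ratio went from 2.10 to 1.01. Unnamed cluster 22 held 0.253% and 32.8% of the Krt19 counts, and with only that cluster left out the ratio rose to 2.66. All 5 urothelial markers measured were at least 1.5-fold higher, and the list summed to 79.6 CPM (75.8 to 83.5) in D+Q, 17.0 CPM (14.9 to 19.3) in vehicle and 270 CPM in young. Upk3a, a protein of the urothelial plaque, had 422 counts in D+Q and 21 in vehicle, and 82 and 4 of these were in proximal tubule-like clusters, which are not known to make it. The part of such RNA in the other ratios was not tested.

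Clu, the chaperone clusterin, was at 187 CPM in D+Q, 104 CPM in vehicle and 134 CPM in young, a log2 ratio of 0.85 (0.77 to 0.94). It was higher in all 5 classes, between 0.58 and 0.79. Ccn2, a matrix signalling protein downstream of YAP, was at 67.5, 36.2 and 44.1 CPM and 0.90 (0.75 to 1.05). Unnamed cluster 4, led by stromal genes that include Tcf21, held 55.1% of its D+Q and 35.6% of its vehicle counts, and the ratio without that cluster was 0.39. Unnamed cluster 5 held 22.5% and 39.2% of the Ccn2 counts, and with only that cluster left out the ratio was 1.15. Ccn2 stayed past 1.5-fold with the cluster makeup held equal and in proximal tubule-like clusters only. With clusters 18, 21 and 22 left out, a choice made after the data were seen, 3 of 23 injury genes were higher and 0 lower. With the cluster makeup held equal it was 2 higher and 1 lower, and in proximal tubule-like clusters alone 3 and 1 of 17, with a median of −0.10.

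Some immune and complement genes were lower in D+Q, among them 7 of 14 complement, 3 of 6 MHC class II and 3 of 20 interferon response genes (1.81% of all genes were lower). Several of the largest ratios were smaller without 1 cluster. Slpi, a secreted inhibitor of neutrophil proteases, was at 3.23 CPM (2.50 to 4.10) in D+Q, 56.8 CPM (52.9 to 61.0) in vehicle and 1.75 CPM (1.25 to 2.37) in young. The vehicle library stood far above both others, with a log2 ratio of −4.13 (−4.52 to −3.78). C3, the central complement component, was at 9.69, 41.6 and 7.12 CPM and −2.10 (−2.34 to −1.87). Gbp2, an interferon-induced GTPase, was at 2.60, 14.9 and 4.09 CPM and −2.51 (−2.98 to −2.08), and Dcn, the collagen-binding proteoglycan decorin, at 38.1, 71.0 and 49.5 CPM and −0.90 (−1.04 to −0.76).

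The vehicle counts of these 4 genes were concentrated in 1 cluster. Cluster 22, unnamed, held 9 D+Q and 35 vehicle barcodes, 44 in all, and was led by genes that include Pkhd1l1, Muc16, Upk3b and C3. In it lay 52.2% of the vehicle counts of Slpi, 72.5% of C3, 68.0% of Gbp2 and 44.9% of Dcn. Leaving it out changed the log2 ratios to −3.88 for Slpi, −0.52 for C3, −0.94 for Gbp2 and −0.12 for Dcn. Slpi and Gbp2 stayed past 1.5-fold, and Slpi in proximal tubule-like clusters alone was at −3.03 (−3.97 to −2.26) on 15 and 77 counts. C3 and Dcn no longer reached 1.5-fold.

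Lyz2, the lysozyme of macrophages and neutrophils, was at 4.48 CPM (3.62 to 5.49) in D+Q, 30.4 CPM (27.5 to 33.4) in vehicle and 5.93 CPM (4.98 to 7.0) in young, a log2 ratio of −2.75 (−3.10 to −2.43). In vehicle 67.5% of its counts lay in 10 barcodes and 53.7% in unnamed cluster 5, led by leukocyte genes that include Ptprc and Dock2. Without cluster 5 the ratio was −2.30. Macrophage and monocyte markers summed to 52.1 CPM (49.1 to 55.3) in D+Q, 107 CPM (101 to 112) in vehicle and 52.3 CPM in young. Lyz2 is on this list and gave 4.48 CPM of the D+Q sum and 30.4 CPM of the vehicle sum. Of the 4 markers measured, 3 were at least 1.5-fold lower, Lyz2 among them. T and NK cell markers summed to 4.24, 10.4 and 4.18 CPM and B and plasma cell markers to 25.8, 53.5 and 9.46 CPM. Neutrophil markers were few in every library, at 1.93 CPM (1.38 to 2.63) in D+Q and 2.90 CPM (2.07 to 3.95) in vehicle.

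Complement held 7 lower and 1 higher of 14 measured genes, with a median of −0.41. The summed level of the list was higher in D+Q, at 783 CPM against 687 CPM, a log2 ratio of 0.19 (0.15 to 0.22), so sum and median differed in sign. After C3 the lowest were Cfd, the adipocyte protease adipsin, at −1.96, and the macrophage-made C1q chains C1qa at −1.42 and C1qb at −1.04, while Clu, which also restrains complement, was the higher one. With clusters 18, 21 and 22 left out, 2 of 12 were lower and 1 higher, and in proximal tubule-like clusters only 0 of 8 were lower. Cfd and Car3 marked fat: cluster 21, an adipocyte-like cluster, held 70.9% of the vehicle counts of Car3, carbonic anhydrase 3. Cluster 21 had 6 D+Q and 12 vehicle barcodes, 18 in all. Car3 was at 13.7 CPM in D+Q, 32.9 CPM in vehicle and 143 CPM in young, a log2 ratio of −1.26 (−1.48 to −1.04), and −0.66 without that cluster.

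MHC class II genes, which present antigen to helper T cells, held 3 lower and 0 higher of 6 measured, with a median of −0.52. H2-Aa was at 27.7 CPM in D+Q, 47.3 CPM in vehicle and 26.0 CPM in young, and Cd74, the invariant chain, at 72.9, 111 and 81.7 CPM. Their log2 ratios were −0.77 (−0.94 to −0.61) and −0.61 (−0.72 to −0.51), and D+Q lay near young in both. In proximal tubule-like clusters they were −0.61 and −0.20. With the cluster makeup held equal, 0 of 6 passed 1.5-fold, with a median of −0.32, and the mean over barcodes also gave 0 of 6.

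Immunoglobulin transcripts, products of plasma cells, were 5 of 6 lower, with a median of −1.12, but 2 of 6 by the mean over barcodes. Igha, the IgA heavy chain, was at 27.1 CPM in D+Q, 66.0 CPM in vehicle and 0.341 CPM in young, and Jchain, which joins IgA and IgM into polymers, at 18.1, 40.5 and 2.13 CPM. Both old libraries lay well above young. The log2 ratios were −1.28 (−1.44 to −1.13) and −1.16 (−1.36 to −0.97). Leukocyte-led cluster 5 held 11.5% of the D+Q and 27.7% of the vehicle counts of Igha, and 10.1% and 24.7% of those of Jchain. Proximal tubule-like cluster 7 held 14.7% and 13.1% of Igha, and 11.5% and 16.1% of Jchain. The part of RNA from outside the cell in these ratios was not tested. Ighg2c, an IgG heavy chain, was at −1.76, but cluster 5 held 74.0% of its vehicle counts, and without it the ratio was −0.11. Interferon response genes held 3 lower and 0 higher of 20 (Gbp2, Cxcl10 and the GTPase Iigp1), with a median of −0.15, and without clusters 18, 21 and 22 it was 1 of 19. The haemoglobin genes, a measure of red cell RNA, were 4 of 4 lower with a median of −1.07, and 1 of 4 with a median of −0.47 with the makeup held equal, with Hba-a1 at −1.18 overall and −0.50 in proximal tubule-like clusters, and their part in the immune ratios was not tested.

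**Figure D5:**
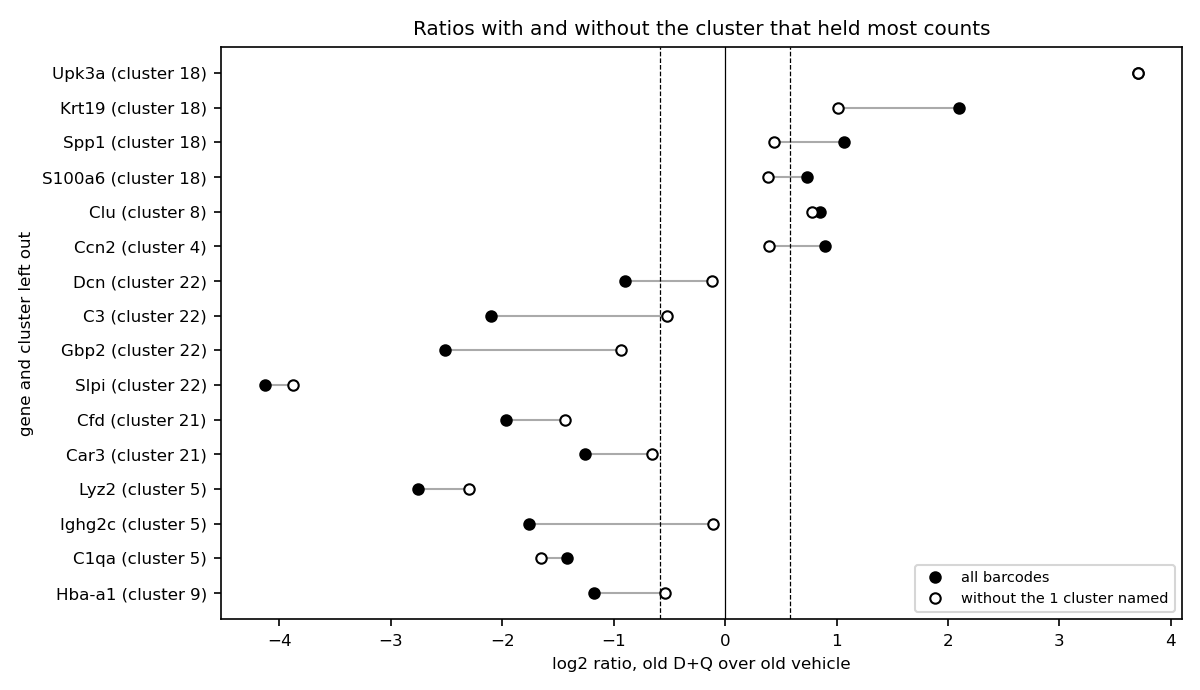
Log2 ratios of old D+Q over old vehicle of 16 genes with all barcodes (filled) and without the cluster that held the largest share of the gene's counts (open), named beside each gene, with 1.5-fold as dashed lines. Spp1, S100a6, Ccn2 and Hba-a1 move inside the dashed lines, as do C3, Dcn and Ighg2c, from −2.10 to −0.52, −0.90 to −0.12 and −1.76 to −0.11, and the other 9 stay outside. S100a6 depends on which cluster is left out. It is at 0.38 without cluster 18 but at 1.18 without cluster 22, which held 0.477% of its D+Q and 27.7% of its vehicle counts.

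Few transport and energy genes of the tubule passed 1.5-fold. Over all genes 1.38% were higher and 1.81% lower, so 0 in a list of this size is near that share. Of 37 measured proximal tubule transport genes 0 passed 1.5-fold, with a median of −0.14, and the same held for 27 organic ion and drug transporters (median −0.14), 18 genes of gluconeogenesis and fructose use (−0.10) and 16 of megalin and cubilin endocytosis (0.02). Of 32 distal transport genes 0 passed, with uromodulin (Umod), the most abundant urinary protein, at 0.45. Aqp2, the vasopressin-regulated water channel, was at 63.9 CPM in D+Q, 38.6 CPM in vehicle and 27.7 CPM in young, a log2 ratio of 0.72 (0.58 to 0.87), or 0.57 with the makeup held equal, and was also at 0.77 (0.45 to 1.11) in proximal tubule-like clusters, which are not known to make it.

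The vitamin D-activating enzyme Cyp27b1 was at 23.3, 14.9 and 11.8 CPM and 0.64 (0.40 to 0.88), while klotho (Kl), the FGF23 co-receptor, stood at 0.07. All 13 mitochondrially encoded genes had a ratio above 0, with a median of 0.35, and 1 passed 1.5-fold, mt-Cytb, a complex III subunit, at 0.59 (0.58 to 0.60). With a mitochondrial limit of 25% the median was 0.24 and 0 passed. The 51 nuclear-encoded respiratory chain genes measured did not share this, with 0 past 1.5-fold and a median of −0.06. Among 16 immediate early genes, Egr1 was lower at −2.03 (−2.54 to −1.57), and Ier3 and Klf4 were higher at 0.99 and 0.69.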

How the data were processed

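Single-cell 3′ libraries of kidney tissue from male mice were made on the MobiCube platform, per the labels' protocols, 1 library per group. The deposited matrices hold raw counts of molecules per gene and barcode, which the authors made and did not normalise. The aligner, the rule that selected barcodes and the role of each genome build named in the submitters' processing notes (GRCm39 and mm10) were not stated. No barcode of the old libraries held fewer than 1416 counts.

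Barcodes above 50% mitochondrial counts were left out (149 of 8037 in D+Q, 82 of 6027 in vehicle and 385 of 8615 in young). Counts were summed and scaled to CPM, ratios used a prior of 0.5 counts, and intervals were exact (conditional binomial for ratios, Poisson for CPM, Clopper-Pearson for shares). The ratio script was tested on simulated data. Scrublet's automatic threshold called 1 and 0 doublets in the old libraries and was taken not to have worked, so doublets were kept and leaving out the 464 and 244 highest scores was an alternative. Clusters were made by Leiden at a resolution of 1, on 15 neighbours in 30 principal components of the 2000 most variable genes, unintegrated. A cluster was named where at least 3 markers reached 0.25 of their highest level over clusters and no other class reached 0.75 of its score, thresholds set after the data were seen. Unnamed clusters held 14.9% of D+Q and 19.1% of vehicle barcodes. The gene groups (44 lists and 17 marker lists) and the naming rule were chosen with earlier results of these data known. The rule names the 14 largest ratios per direction with at least 30 CPM and 100 counts and an interval beyond 1.5-fold, up to 4 members per list, and any clock, glucocorticoid, arrest or marker gene; other genes were named after their values were seen. Of the genes the rule names, 1 leading lower gene and 1 list member are not reported here. Promoters came from RefSeq on GRCm38.p6 and overlaps from GENCODE M21. Tools were Python 3.11.15, scanpy 1.11.5, scipy 1.17.1, igraph 0.11.9 and edgeR 4.0.16 (TMM only).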

Additional observations from a re-analysis of the deposited data

How the results depend on the processing

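All 28 leading genes kept their direction under the 12 alternatives planned and 1 added after the data were seen. The added one left out clusters 18, 21 and 22. These genes were picked for large ratios in the same libraries, so their kept direction was largely set by that choice. They also stayed past 1.5-fold, except Spp1, Clu, Car3, Dcn and Usp29 with the cluster makeup held equal, Spp1, C3 and Dcn in proximal tubule-like clusters only, and Spp1, C3 and Dcn without the 3 clusters. Cluster 2 was itself led by Cyp4a14 and Ehhadh, so holding it equal also removes part of their ratios, which were then 1.06 and 1.13. Counts of genes past 1.5-fold depended on the floor: with none, 3377 were higher and 4496 lower, mostly genes of few counts, and with 100 counts and 20 CPM 56 and 68. Holding the makeup equal left 117 lower. Higher genes were 43.3% of those past 1.5-fold as reported, 60.1% with median-of-ratios scaling, 52.7% with totals without mitochondrial and haemoglobin genes and 61.8% with the makeup held equal. Of the list medians, several between −0.11 and 0.08 turned sign under some alternative, and so did those of the injury list (−0.01 with the higher floor) and the interferon list (0.08 in proximal tubule-like clusters only). Depth limits genes of few counts and the smaller classes. No paired analysis was possible because each group has 1 library, and for the same reason no library could be left out.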
